A study of Mus musculus with 17 samples.

Results

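The cells compared here were germinal centre (GC) B cells with high activity of cyclin-dependent kinase 2 (CDK2hi), divided by their own transcripts into an S class and a mitotic class. Transferred B1-8hi B cells, whose receptor recognizes the hapten NP, carried in the Rosa26 locus a fragment of human DHB fused to tdTomato, alone or with H2B-GFP, which leaves the nucleus as CDK2 activity rises. They were placed in CD45.1 hosts primed with ovalbumin (OVA), which were then immunized with NP-OVA in the footpad. At day 7 the hosts were given anti-DEC-OVA, an antibody that carries OVA to GC B cells expressing the receptor DEC-205. Lymph-node GC B cells were sorted by image at day 10, 72 h later, into a pool with cytoplasmic reporter (CDK2hi) and a pool with nuclear reporter (CDK2low). All cells of both pools had this treatment, and no untreated animals carried the reporter in these pools. Adult mice of both sexes were used in the study. Hashtag antibodies marked the mouse of origin, and 10X Genomics 5′ libraries gave unique molecular identifier (UMI) counts per gene and cell. Each sort was 1 library, so that sort and library cannot be told apart.

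Class membership was selected on 8 transcripts. For every cell, UMIs of *Mcm3*, *Mcm5*, *Mcm6* and *Ccne2* (sum A) and of *Cenpf*, *Ccnb1*, *Cdc20* and *Plk1* (sum B) were taken per 10000 UMIs. The S class had A of at least 4 and B of at most 1, and the mitotic class had B of at least 10 and A of at most 2. Of 9358 barcodes in the CDK2hi pool, 7749 were assigned to 1 of the 7 mice with cells among 9 listed, and 7448 remained after cells below 200 genes or at 10% or more mitochondrial UMIs were dropped. The S class held 1478 cells, 87 to 336 per mouse, and the mitotic class 550 cells, 30 to 120 per mouse. The other 5420 cells met neither rule. The S class outnumbered the mitotic class 1.92-fold to 3.23-fold within every mouse.

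A dividing cell first loads MCM helicases on replication origins and makes the enzymes of DNA synthesis under E2F factors, which cyclin E with CDK2 keeps active. It then builds the spindle under cyclin A, cyclin B and CDK1, and the anaphase-promoting complex destroys the mitotic cyclins as the cell leaves mitosis. GC B cells run through this cycle quickly and also mutate their antibody genes, a process in which uracil in DNA is removed, copied across or repaired by the enzymes described further on.

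Promoters of 4 genes are shown first, to show the letters that are counted over whole sets of genes after them. They belong to the 2 genes with the largest difference towards each class among those whose promoter holds the letters, so all 4 carry them by choice. The sequences are RefSeq promoters of build GRCm38.p6, from 250 bases before to 50 after the start, 5′ to 3′ on the gene's strand. Capitals mark an E2F-type match (TTTCCCGC, TTTGGCGC, TTTCGCGC or TTTGCCGC, either strand) in the first pair, which was higher in the S class. In the second pair, which was higher in the mitotic class, they mark CCAAT and TTTGAA, the letters of the CCAAT box and of the cell-cycle homology region, on either strand. *Cdc6* loads the MCM helicase, *Cdca7* recruits the chromatin remodeller HELLS, *Aspm* focuses spindle poles and *Ube2c* is a ubiquitin-conjugating enzyme of the anaphase-promoting complex. The matches in *Ube2c* include a CCAAT that overlaps an ATTGG.
Cdc6, chr11:98907901-98908200, plus strand: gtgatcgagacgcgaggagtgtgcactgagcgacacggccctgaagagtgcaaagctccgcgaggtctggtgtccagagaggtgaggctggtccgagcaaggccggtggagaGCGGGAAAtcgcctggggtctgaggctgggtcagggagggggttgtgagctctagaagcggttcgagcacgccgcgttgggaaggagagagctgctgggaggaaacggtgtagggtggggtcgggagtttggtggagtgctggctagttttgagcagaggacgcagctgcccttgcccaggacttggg
Cdca7, chr2:72475969-72476268, plus strand: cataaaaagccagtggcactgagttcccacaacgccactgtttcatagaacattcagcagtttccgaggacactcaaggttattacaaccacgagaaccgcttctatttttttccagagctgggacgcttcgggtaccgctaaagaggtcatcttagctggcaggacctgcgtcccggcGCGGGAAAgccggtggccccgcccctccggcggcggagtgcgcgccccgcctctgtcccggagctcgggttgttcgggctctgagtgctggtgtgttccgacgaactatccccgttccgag
Aspm, chr1:139454523-139454822, plus strand: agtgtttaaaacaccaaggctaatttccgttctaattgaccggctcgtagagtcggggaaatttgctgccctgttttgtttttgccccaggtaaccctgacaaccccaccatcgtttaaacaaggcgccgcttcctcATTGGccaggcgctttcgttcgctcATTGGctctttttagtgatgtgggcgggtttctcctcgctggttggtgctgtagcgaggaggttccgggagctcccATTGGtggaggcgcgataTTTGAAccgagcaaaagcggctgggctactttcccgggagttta
Ube2c, chr2:164769679-164769978, plus strand: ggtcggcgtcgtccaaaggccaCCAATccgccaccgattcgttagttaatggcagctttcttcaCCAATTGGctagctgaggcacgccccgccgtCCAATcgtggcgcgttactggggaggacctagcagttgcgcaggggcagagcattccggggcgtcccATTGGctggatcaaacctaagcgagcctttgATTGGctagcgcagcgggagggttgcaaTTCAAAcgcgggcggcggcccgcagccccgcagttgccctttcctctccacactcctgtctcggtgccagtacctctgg

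The same letters were counted over the promoters of called genes that differed at least 2-fold between the classes and had an average log2 CPM above 4, a set fixed by these measurements and described with no test. Of 312 genes at least 2-fold higher in the S class, 253 had a promoter in the table, and 54 of their 313 promoters (17.3%) held an E2F-type match. Of 241 genes at least 2-fold higher in the mitotic class, 195 had one, and 7 of 234 promoters (2.99%) held such a match. The share was 2.26% over all 32851 promoters and 4.65% over those of the genes tested. CCAAT together with TTTGAA stood in 71 of the 234 mitotic-class promoters (30.3%), against 5.75% of the S-class promoters, 5.56% over the genes tested and 6.95% over all promoters. Counted singly, CCAAT stood in 61.5% of the mitotic-class promoters and TTTGAA in 39.3%, against 38.7% and 12.4% over the genes tested. The E2F-type letters and the pair thus stood in a minority of the promoters of their set, and the promoter of *Ung*, described further on, held no match of any kind. A match is a run of letters and was not shown here to be a binding site.

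The genes that chose the classes are given as a description. Levels are UMIs scaled to 1000000 (CPM) over the summed cells of a mouse and class, with the 8 genes and the Igh locus left out of the total. This plain scale holds for these 8 genes, cell type markers, the remaining cells and CDK2low cells. Levels of tested genes in the 2 classes were scaled over the genes that passed the filter on low counts, with TMM factors. *Mcm5* lay between 330 and 448 CPM in the S class of the 7 mice and between 29.8 and 43.3 CPM in the mitotic class. *Ccne2* lay between 95.3 and 110 CPM and between 0 and 2.3 CPM. *Cdc20*, which activates the anaphase-promoting complex, lay between 4.0 and 12.5 CPM in the S class and between 446 and 581 CPM in the mitotic class. *Plk1*, a mitotic kinase, lay between 2.7 and 8.9 CPM and between 291 and 349 CPM. Near the thresholds, 56 S-class cells had A between 4 and 5 and 44 cells with B of at most 1 fell short at A between 3 and 4. For the mitotic class, 58 cells had B between 10 and 12, and 66 cells with A of at most 2 fell short at B between 8 and 10. A further 733 cells with A of at least 4 were outside the S class because B lay above 1 and up to 2.

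Markers of GC B cells were present in both classes, at a summed 3325 to 3684 CPM over 9 genes in the S class and 3481 to 4209 CPM in the mitotic class. *Cd3e* and *Cd4* of T cells and *C1qa* of myeloid cells had no UMI in either class of any mouse. Of the 7 T cell markers in the files, *Lck* gave most of the summed 41.7 to 81.0 CPM in the S class and 50.1 to 94.9 CPM in the mitotic class. The 8 myeloid markers summed to 3.8 to 9.8 CPM and 3.6 to 11.7 CPM. Of the plasma cell markers, *Sdc1* and *Prdm1* were at or below 1.0 CPM, whereas *Jchain*, *Xbp1* and *Mzb1* made up nearly all of 1202 to 1408 CPM in the S class and 990 to 1317 CPM in the mitotic class. S-class cells held more RNA counts, with a median UMI count per cell 1.09-fold to 1.43-fold that of mitotic-class cells in all 7 mice, and 158.5 to 614.5 more genes per cell. The median mitochondrial share per mouse was 2.88% to 3.38% in the S class and 3.04% to 3.98% in the mitotic class, higher in the latter in all 7 mice. The part of depth and mitochondrial share in the differences given further on was not tested beyond the alternatives of like depth. CPM therefore compares shares of the transcripts of a class, and a change in RNA per cell was not measured.

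The sort read the reporter and no transcript, and the shares of cells that met the transcript rules differed between its pools. The S class made up 19.5% ± 1.6 (SD, n = 7 mice) of CDK2hi cells, with a lowest share of 18.1%, a median of 18.5% and a highest of 22.4%. In CDK2low cells of the same mice it made up 36.8% ± 2.7, from 33.1% over 36.9% to 41.4%. The ranges did not overlap, and the share was lower in CDK2hi cells in all 7 mice, by 17.4 percentage points on average (exact two-sided sign-flip test, p = 0.0156, the smallest that 7 mice allow). This share counts cells that met both limits of the rule, and not all cells with transcripts of sum A. In the CDK2hi pool, 733 cells with A of at least 4 were left out for B above 1 and up to 2. Outside both classes, the genes of sum A had a median over mice of 967 CPM in CDK2hi and 244 CPM in CDK2low cells. The mitotic class made up 7.52% ± 1.28 of CDK2hi cells and 0.549% ± 0.407 of CDK2low cells. It was higher in CDK2hi cells in all 7 mice, by 6.97 percentage points (exact sign-flip test, p = 0.0156). The reporter leaves the nucleus as a cell moves through the cycle, so the sort was not independent of cycle stage. Both p-values therefore state how the differences repeated over mice, and not whether the classes were free to fall in either pool. In all, 30 CDK2low cells met the mitotic rule, and none did in 2 of the mice. The pools differed in depth, with a median of 10534 UMIs per CDK2hi cell and 12885 per CDK2low cell. After every cell was thinned to 5260 UMIs, which left out 930 and 253 cells, the S-class share was 22% ± 1.5 against 34.2% ± 1.8 and the mitotic share 10.5% ± 2.0 against 0.680% ± 0.485. With stricter class thresholds the differences were -8.99 and 2.13 percentage points. The 2 pools had 5 kept barcodes in common, none with the same mouse.

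**Figure D1:**
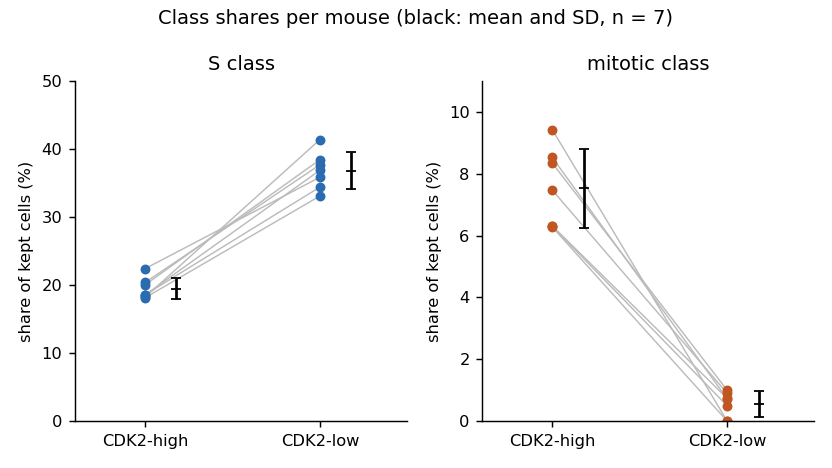
Share of kept cells (%) in the S class (left) and in the mitotic class (right) for CDK2hi and CDK2low cells, with a line joining the pools of each mouse and the mean and SD over 7 mice in black. The S-class share was between 18.1% and 22.4% in CDK2hi and between 33.1% and 41.4% in CDK2low cells, and the mitotic class was nearly confined to the CDK2hi pool.

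Replication-dependent histone genes, which are transcribed for the packing of new DNA, were not among the 8 genes and did not follow the name of the S class. Their 66 genes gave a median of 19.2 UMIs per 10000 in S-class cells (quartiles 9.93 and 149), 19.1 in mitotic-class cells (quartiles 6.6 and 194) and 208 in the remaining CDK2hi cells (quartiles 19.9 and 285). Medians of single mice ran from 16.3 to 24.2 in the S class and from 11.6 to 145 in the mitotic class, where mouse 3 (145) and mouse 4 (87.1) stood above the others. The distribution in each class had 2 peaks with few cells between them. At a level of 100 per 10000, placed between the peaks after they were seen, 31.1% of S-class cells lay at or above it (27.6% to 37.4% over mice), 40.4% of mitotic-class cells (32.1% to 57.5%) and 68.6% of the remaining cells (64.4% to 76.8%). Of the S class among CDK2low cells, 1.62% did so, 0.420% to 5.22% over mice. Thus 1018 of the 1478 S-class cells met the rule on MCM and cyclin E transcripts beside a low level of histone transcripts. In the mitotic class, 222 of 550 cells met their rule beside a high level. S class and mitotic class are therefore used here as the names of the rules, and the stage of the cycle of single cells was not tested.

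**Figure D2:**
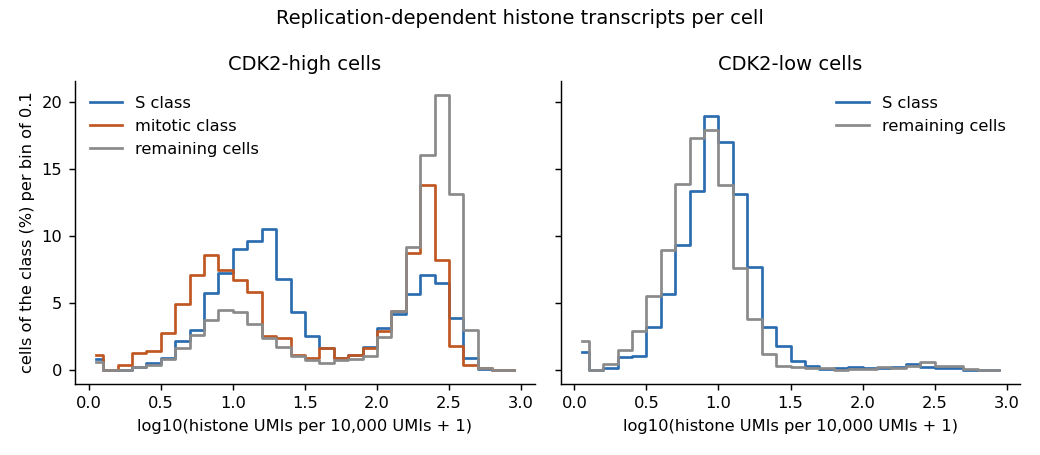
Share of cells (%) in bins of replication-dependent histone UMIs per 10000 UMIs, on a log10 scale after adding 1, in CDK2hi cells (left) and CDK2low cells (right). In CDK2hi cells every class had a low and a high peak, with 31.1% of the S class at or above 100 UMIs per 10000. Both groups of CDK2low cells had almost only the low peak.

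The histone level divided each class further, described here by plain CPM per mouse with no test. The 66 histone genes were also left out of these totals. The S class had 1018 cells below and 460 cells at or above 100 histone UMIs per 10000, and the mitotic class 328 and 222. *Rrm2*, the small subunit of ribonucleotide reductase, had a median over mice of 216 CPM in histone-low and 568 CPM in histone-high S-class cells, then 169 CPM in histone-high and 47.8 CPM in histone-low mitotic-class cells. *Cdc6* was at 138 and 142 CPM in both parts of the S class and at 7.85 and 1.74 CPM in the mitotic class in the same order. *Ccna2*, cyclin A2, was at 36.5, 160, 379 and 370 CPM, so the histone-high part of the S class already held more of it in every mouse (128 to 199 CPM against 28.4 to 47.1 CPM). *Foxm1*, a factor for mitotic genes, was at 8.49, 45.9, 70.6 and 49.1 CPM. *H2ax*, a histone variant gene outside the 66, followed the histone level within both classes, at 127, 530, 1503 and 881 CPM.

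In CDK2hi cells, 7618 genes passed the filter on low counts, and edgeR's quasi-likelihood test with a term for the mouse called 4133 of them, 54.3%, at an adjusted p under 0.05. Of these, 2067 were higher in the S class (27.1%) and 2066 in the mitotic class (27.1%), and 649 (8.52%) differed at least 2-fold. Values of the 7 mice did not overlap between the classes for 21.8% of genes. Since the classes were chosen on cell-cycle transcripts of the same cells, genes that follow the cycle were bound to differ, and their differences are described with no test. For other genes, p-values state how the difference repeated over mice. The median log2 fold change (S minus mitotic) over all genes was -0.01. The mitotic library of mouse 4, with 30 cells the smallest, stood apart from the other libraries in a principal component analysis, at -46.2 on the second component (13.0% of the variance) where the others lay between -2.30 and 15.2. Without this mouse 4075 genes were called.

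Transcripts for origin licensing and DNA synthesis were the highest in the S class. All 10 origin-licensing genes had non-overlapping values, where 21.8% of all genes did, with a median log2 fold change of 2.03. *Cdc6* was between 122 and 155 CPM in the S class, median 136, and between 1.72 and 7.62 CPM, median 4.66, in the mitotic class. *Mcm4*, a subunit of the MCM helicase, had medians of 363 and 41.9 CPM, and *Orc1*, of the origin recognition complex, 26.3 and 6.22 CPM. Of 27 replication-fork genes, 25 did not overlap, with a median of 1.58. *Pcna*, the sliding clamp of the polymerases, lay between 641 and 803 CPM and between 75.9 and 115 CPM. *Rpa2*, which coats single-stranded DNA, had medians of 152 and 19.1 CPM, and *Gins2*, of the active helicase, 101 and 13.2 CPM. Among 17 nucleotide-synthesis genes, 15 did not overlap and the median was 1.57, with values from -0.42 to 3.43. Histone chaperones and chromatin-copying factors had a median of 1.67 over 12 genes, with values from -0.43 to 3.66. *Slbp*, which binds histone messenger RNA, was at 464 and 100 CPM and *Uhrf1*, which copies DNA methylation, at 293 and 58.1 CPM. Homologous recombination genes had a median of 1.02 over 18, with values from -0.23 to 2.68. *Brca1* was at 116 and 24 CPM and the checkpoint kinase *Chek1* at 65.8 and 10.9 CPM.

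Of 18 regulators of the G1/S step, 14 did not overlap between the classes, where 21.8% of all genes did not, and the median was 1.3. *E2f1* lay between 92.2 and 123 CPM in the S class and between 3.11 and 12 CPM in the mitotic class, and *Ccne1*, cyclin E1, had medians of 61.6 and 4.66 CPM. *Cdc25a*, the phosphatase that activates CDK2, had medians of 81.6 and 19.1 CPM. Lower in the S class, with no overlap, were 3 of them, the CDK inhibitors *Cdkn2d* (log2 fold change -1.75) and *Cdkn2c* (-0.95) and the CDK subunit *Cks1b* (-1.37). Among components that link the E2F and mitotic programmes, *Mybl2* was the higher in the S class (84.8 against 25.9 CPM) and *Foxm1* the higher in the mitotic class (21.2 against 56.9 CPM).

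Transcripts of the spindle, kinetochore and cytokinesis were all higher in the mitotic class, and those of mitotic entry and exit mostly so. All 23 spindle and motor genes had non-overlapping values, where 21.8% of all genes did, with a median log2 fold change of -2.49. *Hmmr*, a spindle assembly factor, lay between 33.9 and 54.2 CPM in the S class, median 40.0, and between 449 and 533 CPM in the mitotic class, median 492. *Aurka*, the kinase of spindle poles, had medians of 20.1 and 187 CPM. All 4 chromosomal passenger genes were separated, with *Birc5* (survivin) at 117 and 651 CPM, as were all 7 cytokinesis genes, with *Kif23*, a motor of the midzone, at 80.2 and 526 CPM. *Cenpa*, the centromeric histone, had medians of 81.5 and 550 CPM, and the median over 18 kinetochore and checkpoint genes was -1.48, with 15 of them not overlapping. Of 11 genes of the anaphase-promoting complex and mitotic exit, 6 did not overlap, all of them lower in the S class, and the median was -1.34. Its inhibitor *Fbxo5* (log2 fold change 0.63) and its subunit *Anapc11* (0.20) had values above 0 and overlapped between the classes. *Ube2c* had the largest fold change of this list, between 41.3 and 59.2 CPM in the S class and between 1056 and 1266 CPM in the mitotic class. *Fzr1*, the activator that takes over from *Cdc20* at mitotic exit, was at 46.6 and 185 CPM. Of 12 genes that switch CDK1, 8 did not overlap, all of them lower in the S class, and the median was -1.88. Values above 0, with overlap, were those of *Pkmyt1* (0.74) and *Wee1* (0.31), kinases that hold CDK1 inactive, and *Arpp19* (0.27), a phosphatase inhibitor. *Cdc25c* and *Ccnb2*, which switch on CDK1, had medians of 6.89 and 88.6 CPM, and of 103 and 517 CPM.

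Chromatin proteins went in both directions, and the histone chaperones and chromatin-copying factors given above were mostly higher in the S class. All 8 high-mobility-group and linker or variant histone genes were higher in the mitotic class with no overlap, where 21.8% of all genes had none. *H2ax* was at 252 and 1117 CPM and *Hmgb2* at 3096 and 5643 CPM. *Mki67* was at 1228 and 2938 CPM, and *Tubb4b*, a tubulin gene whose reads can be shared with close copies, at 270 and 1330 CPM. The median log2 fold change was -0.82 over 9 condensin and topoisomerase genes (-1.25 to 0.95). It was -0.66 over 10 tubulin and nuclear envelope genes (-2.75 to 0.78), so both lists held members on both sides. Replication-dependent histone genes, close copies of one another, showed no common direction in CDK2hi cells. Of 38 tested, all but 1 (*H1f1*) overlapped between the classes, whereas 21.8% of all genes did not overlap, and the median of these 38 was -0.23. It was 0.34 with stricter class thresholds, under which 23 could be tested. *H1f1*, a linker histone, had medians of 323 CPM in the S class and 150 CPM in the mitotic class, whereas *H2bc3* had 47.8 and 91.4 CPM. With stricter class thresholds the log2 fold change of *H2bc3* was -0.19 (SE 0.24).

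**Figure D3:**
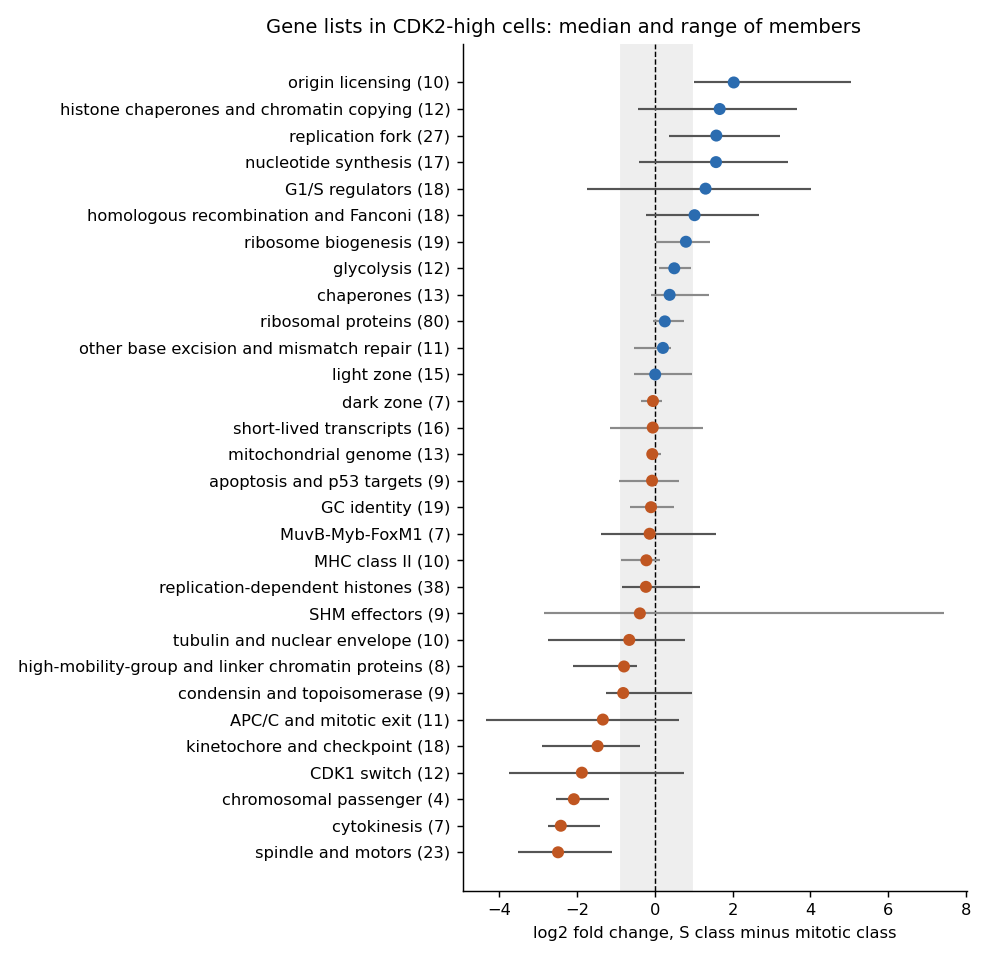
Median (point) and range (line) of the log2 fold change, S class minus mitotic class, over the tested members of each gene list, with the number of members in brackets. Points are blue for a median above 0 and orange below, and the genes of uracil processing are listed as SHM (somatic hypermutation) effectors. The grey band spans the 5th to the 95th percentile of all 7618 genes and the dashed line is their median. Replication lists lay to the right and spindle lists to the left, and the 9 genes of uracil processing reached to both sides, with the value of *Ung* set in part by the count that the fit adds to zeros.

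Genes that process uracil and its repair products during antibody mutation were found on both sides. Beside *Ung*, which is described with no test, all 8 passed the test, as did 54.3% of all genes (4133 of 7618), with 3 higher in the S class and 5 higher in the mitotic class. *Ung*, *Apex1*, *Msh6* and *Apex2* were the higher in the S class. *Fam72a*, *Polh*, *Hmces*, *Neil3* and *Neil1* were the higher in the mitotic class. Their p-values state how the difference repeated over mice. Whether these genes follow the cycle, and so were bound to differ between the classes, was not tested. The p-values cannot decide this, because the classes were cut on cell-cycle transcripts of the same cells. Among their promoters, that of *Msh6* held an E2F-type match and CCAAT, that of *Apex1* CCAAT and that of *Fam72a* CCAAT and TTTGAA, and those of *Ung*, *Neil1*, *Neil3*, *Polh* and *Hmces* held none.

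*Ung* (ENSMUSG00000029591, GRCm39 chr5:114268417-114277384) encodes the glycosylase that cuts uracil out of DNA. It lay between 41.3 and 59.5 CPM in the S class, median 52.5, and had no UMI in the mitotic class of 6 of the 7 mice. In sum, 783 UMIs were counted among 15194712 in the S class and 1 among 4876518 in the mitotic class, a ratio of 251 with an exact 95% interval of 45 to 9938 that covers counting error only. An *Ung* UMI was seen in 517 of 1478 S-class cells (35.0%) and in 1 of 550 mitotic-class cells (0.182%), at median depths of 10381 and 8605 UMIs. In the remaining CDK2hi cells the median was 19.5 CPM. *Ung* is also a member of the S-phase list of Seurat and is given with no test.

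*Fam72a* (ENSMUSG00000055184, GRCm39 chr1:131455602-131467610) encodes a protein that binds UNG and lowers its level. Its values ran opposite to those of *Ung*. It lay between 3.18 and 9.50 CPM in the S class, median 7.43, and between 37.1 and 65.0 CPM in the mitotic class, median 51.4, with no overlap (log2 fold change -2.86 ± 0.18 SE, edgeR, adjusted p = 2.25e-26, lower in the S class in 7 of 7 mice). A UMI was seen in 6.56% of S-class and 31.6% of mitotic-class cells.

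The remaining enzymes moved less. *Apex1*, the main endonuclease at abasic sites, lay between 69.2 and 87.8 CPM in the S class and between 8.62 and 31.4 CPM in the mitotic class (log2 fold change 1.93 ± 0.13 SE, edgeR, adjusted p = 3.10e-23). *Msh6*, of the complex that recognizes mismatches, lay between 112 and 158 CPM and between 25.9 and 53.8 CPM (1.73 ± 0.11, adjusted p = 7.15e-27). *Polh*, the error-prone polymerase eta, lay between 66.4 and 87.9 CPM and between 227 and 274 CPM (-1.63 ± 0.07, adjusted p = 5.34e-37). In each of these 3 genes no mouse value of one class reached into the other. *Hmces*, which shields abasic sites, had medians of 620 CPM in the S class and 1071 CPM in the mitotic class (-0.77 ± 0.04, adjusted p = 2.66e-28). *Neil1* and *Neil3*, glycosylases of oxidized bases, had medians of 367 and 482 CPM, and of 75.1 and 122 CPM, and were lower in the S class in 7 of 7 mice. With stricter class thresholds *Neil3* had -0.40 in place of -0.66 and did not pass (adjusted p = 0.0542). *Apex2*, at 27.6 and 22.4 CPM, had the highest adjusted p of these genes (0.42 ± 0.16, adjusted p = 0.0224) and overlapped between the classes. Under alternatives its adjusted p was as follows, with the log2 fold change in brackets. It was 0.610 with cells thinned to one depth (0.16), 0.670 with stricter class thresholds (0.17) and 0.239 in cells of middle UMI counts (0.33). With the B1-8hi pairing only it was 0.0793 (0.40), without mouse 1 0.0501 (0.41), without mouse 4 0.0551 (0.36) and with DESeq2 0.0985 (0.43).

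**Figure D4:**
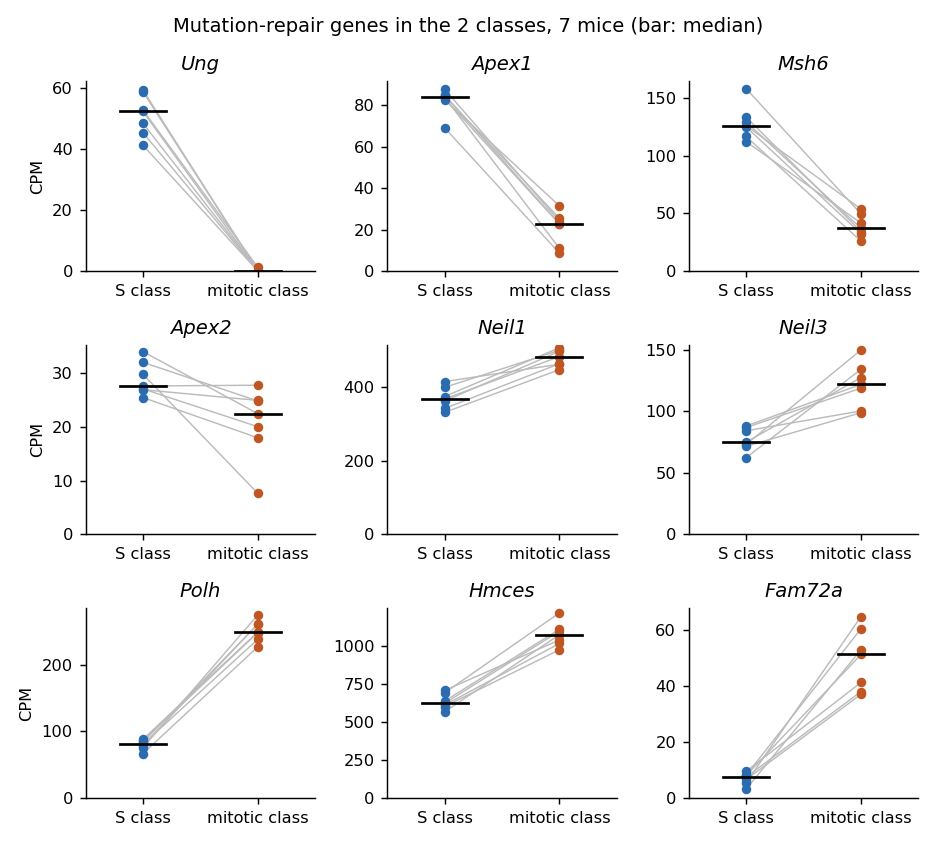
Level (CPM) of 9 genes of uracil processing in the S class and the mitotic class of CDK2hi cells, with a line for each of 7 mice and a bar at the median. *Ung* was between 41.3 and 59.5 CPM in the S class and at 0 in the mitotic class of 6 mice, and *Fam72a*, *Polh* and *Hmces* were higher in the mitotic class in every mouse.

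Within the parts set by histone level, *Ung* was at a median of 50.6 and 46.2 CPM in histone-low and histone-high S-class cells, and no mouse had an *Ung* UMI in histone-low mitotic-class cells. *Fam72a* was at 4.29, 12.1, 54.4 and 47.1 CPM and *Polh* at 67.5, 107, 218 and 282 CPM, in the order histone-low S, histone-high S, histone-high mitotic and histone-low mitotic. *Neil3* followed the histone level, at 42.1, 145, 214 and 50.5 CPM. In the S class of CDK2low cells, *Neil3* was at 19.3 CPM and *Fam72a* at 3.80 CPM, and *Ung* at 40.3 CPM (31.6 to 46.6 CPM). This range overlapped the 41.3 to 59.5 CPM of the CDK2hi S class, which was scaled otherwise. Among 11 other base excision and mismatch repair genes, 5 passed the test (45.5%, against 54.3% of all genes), with a median log2 fold change of 0.21. *Mbd4*, a glycosylase for mismatched thymine and uracil, was the lower in the S class (250 against 341 CPM, -0.54 ± 0.06, edgeR, adjusted p = 6.30e-14), and *Rev3l*, of polymerase zeta, the higher (234 against 179 CPM).

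Most growth genes were higher in the S class. Of 19 ribosome biogenesis genes, 17 were higher and none lower (89.5% called, against 54.3%), with a median of 0.80. *Nolc1*, a nucleolar chaperone, lay between 131 and 183 CPM in the S class and 41.9 and 92.3 CPM in the mitotic class (1.43 ± 0.09 SE, edgeR, adjusted p = 3.08e-25). With stricter class thresholds it had 1.37 ± 0.51 and did not pass (adjusted p = 0.0852). Of 80 ribosomal protein genes, 78 were higher (97.5% called), by a median log2 fold change of 0.25. The largest was that of *Rps2*, at 3124 and 1864 CPM. Of 12 glycolysis genes, 9 were higher and none lower (75% called), with a median of 0.50 and *Ldha*, lactate dehydrogenase, at 492 and 271 CPM (0.92 ± 0.06, adjusted p = 2.86e-26). Of 13 chaperones, 10 were higher and none lower (76.9% called), with *Hspa9* and *Hspd1*, both mitochondrial, at 106 and 42 CPM and at 231 and 106 CPM. Of 13 genes of the mitochondrial genome, 5 were lower and 1 higher (46.2% called), with log2 fold changes between -0.21 and 0.15.

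Genes of B cell identity and GC zones differed in both directions, with log2 fold changes from -0.63 to 0.96. The MHC class II genes that passed were all lower in the S class. Of 7 dark zone genes, 2 were higher and 3 lower (71.4% called, against 54.3% of all genes), with log2 fold changes from -0.36 to 0.19. *Cxcr4*, the chemokine receptor that holds cells in the dark zone, was at 99.9 CPM in the S class and 125 CPM in the mitotic class (-0.36 ± 0.08, edgeR, adjusted p = 6.70e-05). Of 15 light zone genes, 3 were higher and 5 lower (53.3% called), with *Cd83*, an activation marker, at 196 and 159 CPM (0.57 ± 0.11, adjusted p = 1.70e-04). The other way were *Cd40*, the receptor for T cell help, at 53 and 65.5 CPM (-0.52 ± 0.11, adjusted p = 1.50e-05), and *Nfkbia*, an inhibitor of NF-κB, at 106 and 167 CPM (-0.53 ± 0.15, adjusted p = 0.0134). With stricter class thresholds *Nfkbia* had -0.88 ± 0.51 and did not pass (adjusted p = 0.236). *Batf*, a transcription factor of activated B cells, was at 29.8 and 23.0 CPM, but at 156 and 62.3 CPM in mouse 6, without which its adjusted p was 0.0621. With each cell given to its highest hashtag it was 0.396, and without the term for the mouse 0.456. Of 19 GC identity genes, 4 were higher and 9 lower (68.4% called) with a median of -0.10. *Bach2*, a repressor of plasma cell fate, was at 1853 and 2905 CPM (-0.63 ± 0.08, adjusted p = 8.19e-05), and *S1pr2*, which confines cells to the GC, at 190 and 139 CPM. Of 10 MHC class II genes, 7 were lower in the S class and none higher (70% called, against 54.3% of all genes). The largest were *H2-Oa* and *H2-Ob*, which restrain peptide loading, at 84.2 and 165 CPM and at 202 and 342 CPM.

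Short-lived transcripts gave no common direction, with 6 of 16 higher and 7 lower in the S class (81.3% called) and a median of -0.06. With DESeq2, which called 3204 of the 7618 genes, 3 were higher and 4 lower, and the median lay between -0.18 and 0.21 over 17 alternatives. *Klf6*, a zinc-finger factor, was at 40.3 and 86.2 CPM, and *Jund*, an AP-1 subunit, at 369 and 255 CPM. Of 9 apoptosis and p53 genes, 2 were higher and 3 lower (55.6% called, against 54.3%). *Trp53* itself was at 191 and 133 CPM and *Trp53inp1*, one of its targets, at 38.0 and 77.7 CPM. All 3 plasma cell markers that could be tested were higher in the S class, by at most 0.24, where 27.1% of all genes were higher. Over 17 alternatives 1 to 3 of them passed, and *Xbp1* did not with DESeq2 (adjusted p = 0.0715), without mouse 5 (0.0994) or without mouse 6 (0.0522). Of 9 GC B cell markers, 5 were lower, by at most 0.32, and 1 higher (66.7% called, against 54.3%). The lowest, *Fas*, a death receptor, had -0.32 but -0.18 with cells thinned to one depth (adjusted p = 0.0874) and -0.13 in cells of middle UMI counts (0.213). All 3 markers of naive or memory B cells that could be tested, *Klf2*, *Cr2* and *Fcer2a*, were lower, with log2 fold changes of -0.52, -0.28 and -0.24. None of the 3 passed with DESeq2 (adjusted p = 0.0742, 0.103 and 0.0529). *Cr2* and *Fcer2a* did not pass without the term for the mouse (0.325 and 0.277), and *Fcer2a* was at -0.03 with cells thinned to one depth. Without mouse 1 *Klf2* and *Cr2* did not pass (0.0706 and 0.0902), *Cr2* also not without mouse 3, 4 or 5 (0.0533 to 0.0678), and without mouse 7 *Fcer2a* did not (0.0792).

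Outside the lists, genes were named for the size of their difference and for 1 direction in all 7 mice, so these are given with no test. The highest towards the S class were *Srm*, spermidine synthase (58.9 against 7.77 CPM, log2 fold change 3.05 ± 0.18 SE), *Zmynd19*, *Fkbp5*, *Timeless*, *Donson*, *Tcf19*, *Ppat* and *Zdhhc2*. *Timeless* and *Donson* act at replication forks, and *Ppat* starts purine synthesis, with medians of 80.8 and 17.2 CPM. The highest towards the mitotic class were *Pif1*, a DNA helicase (5.31 against 141 CPM, -4.64 ± 0.13), *Aspm*, *Troap*, *Parpbp*, *Knstrn*, *Arhgap19*, *Cip2a* and *Miip*. *Aspm* was between 15.4 and 28.8 CPM in the S class and between 421 and 602 CPM in the mitotic class. *Knstrn* acts at kinetochores, and *Cip2a* inhibits a phosphatase.

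The same rule was applied to GC B cells of 7 other mice, collected 72 h after anti-DEC-OVA in the time-course pools and not sorted on the reporter, with 82 to 168 S-class and 21 to 66 mitotic-class cells per mouse. The cells came from 2 pools, with 4 mice in one and 3 in the other. The paper describes them as B1-8hi cells that express DEC-205, and their receptor sequences were not checked here. Of 6557 genes tested, 2436 (37.2%) were called, 18.2% higher and 18.9% lower in the S class, and 8.11% differed at least 2-fold. Of the 4133 calls in CDK2hi cells, 3707 could be tested here. Called in both sets of mice with the same direction were 2042 genes, and 16 were called in opposite directions. The 2042 genes are 49.4% of all CDK2hi calls, tested at 72 h or not, and 83.8% of the calls at 72 h. Both sets were split by the same 8-gene rule, so genes that follow the cycle were bound to go the same way. *Ung* was at a median of 37.2 CPM in the S class and at 0 CPM in the mitotic class, and *Fam72a* at 9.04 and 54.8 CPM (log2 fold change -2.71 ± 0.24 SE, edgeR, adjusted p = 9.22e-15). *Polh* was at 55.9 and 289 CPM (-2.49 ± 0.11) and *Hmces* at 454 and 1023 CPM (-1.15 ± 0.06). *Apex1* and *Msh6* had log2 fold changes of 1.98 ± 0.18 and 1.91 ± 0.16, and *Apex2* did not pass (0.26 ± 0.25, adjusted p = 0.440). Genes of B cell identity and zones had other values in these mice for several members. *Bach2* had a log2 fold change of -0.15 ± 0.05 (edgeR, adjusted p = 0.0158), against -0.63 in CDK2hi cells. *H2-Aa*, a chain of MHC class II, had -0.0037 ± 0.05 against -0.31, *Mef2c*, a B cell factor, -0.06 ± 0.06 against -0.33, and *Bcl6*, the master factor of GC B cells, -0.03 ± 0.09 against -0.27, none of which passed at 72 h. *Fcer2a*, which encodes CD23, turned from -0.24 to 0.60 ± 0.10 (adjusted p = 7.97e-06). *Xbp1*, *Mzb1* and *Jchain* did not pass, at 0.20, 0.18 and -0.18. *H2-Oa* and *H2-Ob* were lower in the S class in both sets (-0.45 ± 0.10 and -0.56 ± 0.08 at 72 h), and *S1pr2* (0.69 ± 0.10) and *Cd83* (1.18 ± 0.10) higher in both. *Cd40* was lower in both (-0.40 ± 0.15, adjusted p = 0.0270, at 72 h). Replication-dependent histone genes, without a common direction in CDK2hi cells, had a median log2 fold change of -1.25 here. It ran from -1.78 to 0.32 over 20 genes, of which 7 did not overlap, where 9.79% of all genes did not. The difference between the sets of mice was not tested.

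**Figure D5:**
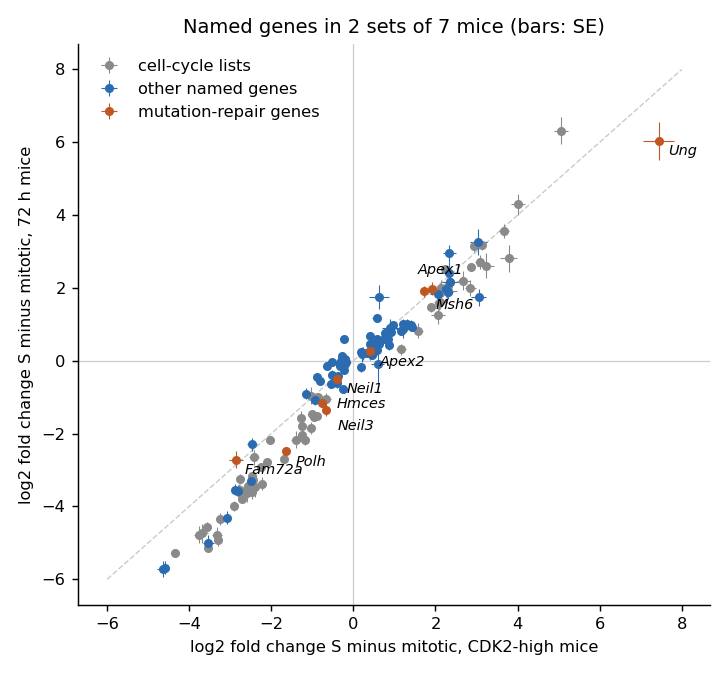
Log2 fold change, S class minus mitotic class, of the named genes in the 7 CDK2hi mice (horizontal) and in 7 mice at 72 h of the time course (vertical), with SE bars and a dashed line of equality. Genes of cell-cycle lists are grey, genes of uracil processing orange and other named genes blue. The fitted values of *Ung* depend on the count added to zeros. *Ung* and *Fam72a* lay at opposite ends of the uracil-processing genes in both sets.

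Somatic mutations were counted in cells with 1 productive *Ighv1-72*/*Ighj2* heavy chain and 1 productive *Iglv1*/*Iglj1* light chain, the B1-8hi pairing, over the 689 bases of both chains. The pairing was found in 48.3% to 61.8% of S-class cells and 56.8% to 70.0% of mitotic-class cells per mouse. S-class cells carried 3.63 ± 0.51 mutations (SD over 7 mice, 42 to 196 cells per mouse) and mitotic-class cells 3.37 ± 0.57 (21 to 83 cells per mouse). The lowest, median and highest mouse had 3.18, 3.4 and 4.48 mutations in the S class and 2.74, 3.29 and 4.45 in the mitotic class, so the ranges overlapped. The S class was higher in 5 of 7 mice, by 0.261 on average, with an exact 95% interval of -0.407 to 0.826 (exact two-sided sign-flip test, p = 0.359). The interval holds the differences that the test did not reject in these mice, and no difference is among them. The mean difference was 0.106 without mouse 10, 0.480 without mouse 6 and 0.661 with stricter class thresholds, in 5 mice. Cells without a mutation made up 8.01% of S-class and 8.45% of mitotic-class cells.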

How the data were processed

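Per the file headers, the authors deposited UMI counts per gene, hashtag and cell from CellRanger (version 8.0.1 in the header of the CDK2hi matrix, whereas the submitters' processing notes list Cell Ranger 6.0.1, with Seurat 5.1.0 and build mm39), not normalized, and filtered immunoglobulin contigs. Cells were assigned with HTODemux (Seurat 5.3.0, positive quantile 0.99); cells with hashtags of more than 1 mouse (975 in CDK2hi) were left out, and doublets of 1 mouse were not searched for. The letters C and N of the authors' list were read as cytoplasmic and nuclear reporter. Class members, gene lists and the rule were chosen with earlier results of these data known. UMI counts were summed per mouse and class for mice with at least 10 cells in both; the 8 rule genes and the Igh locus were left out. Summed libraries held 264173 to 3757476 UMIs. R 4.3.3 and edgeR 4.0.16 were used (filterByExpr, TMM, a term for the mouse, quasi-likelihood test, Benjamini-Hochberg adjustment over all genes, threshold 0.05); DESeq2 1.42.0 was an alternative. The SE of a log2 fold change from edgeR was derived from the test, as the absolute change divided by the square root of the F statistic. The mouse was the replicate, since both classes came from the same animals: over genes, the deviations of the 2 classes of a mouse correlated at 0.05 to 0.31.

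On simulated counts for the CDK2hi comparison, with 7534 genes, the test recovered 88% of changes of 0.5 and 100% of changes of 1 on the log2 scale, with 11 false calls. The simulation changed 100 genes at each size, up and down alike, drawn from the more highly expressed genes. It held no difference between mice. With 4133 of 7618 genes called in the data, these rates hold for the simulated setting only. Mutations were base differences from a reference, the sequence found most often for either chain among 2887 cells at 0 h. A test of the S-minus-mitotic difference between CDK2hi and CDK2low was not run, because 1 mouse had at least 10 mitotic-class cells in both pools. Named genes were every uracil-processing gene, up to 4 per list with the largest absolute log2 fold change past the threshold and an average log2 CPM above 4, and outside the lists the 8 highest in each class with an average log2 CPM above 5 and 1 direction in every mouse. Genes shown by histone level, and members named because they went against the rest of a cell-cycle list, were chosen after their values were seen. None of the 9 nuclear long noncoding RNAs of a further list was analysed here. Alternatives were another normalization, DESeq2, no filter on low counts, no mouse term, each mouse left out, B1-8hi pairing only, another hashtag rule, cells of like depth, stricter class thresholds and, for mutations, the heavy chain, V segments, distinct sequences and medians.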

Additional observations from a re-analysis of the deposited data

Results flagged for a closer look

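Of 153 results checked for a mouse far from the other 6, 10 had one (6.54%), where chance gives about 1 in 20. The values are per-mouse differences, S minus mitotic, of log2(CPM + 1). Mouse 4, with the fewest mitotic-class cells, stood apart for *Ccne1* (5.51, median of the mice 3.48), *Dscc1* (5.76, median 3.11), *Gins2* (4.40, median 2.82), *Apex2* (1.83, median 0.42), *Hspd1* (0.58, median 1.21) and *Parpbp* (-2.16, median -3.05). Mouse 10 stood apart for *Ung* (4.62, median 5.63), because it held the 1 *Ung* UMI of the mitotic class, and for *Smc4* (-1.04, median -1.27). Mouse 6 stood apart for *Pif1* (-5.58, median -4.39) and mouse 7 for *Troap* (-4.46, median -3.41). None of these mice turned the direction of its gene.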

How the results depend on the processing

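The count of genes called between the classes of CDK2hi cells, 4133, lay between 3755 and 4075 with each mouse left out, was 3986 without the mouse as replicate block, and fell to 2663 with cells thinned to one depth, where 5813 genes were tested, and to 2248 with stricter class thresholds, with 6 mice and 5514 genes tested. Of the genes called both as reported and under each alternative, none changed direction. Of the values of named genes under these alternatives, 2468 kept direction and call, 52 lost the call and 1 reversed. This was *Fcer2a*, at -0.24 as reported and 0.066 (SE 0.093) among cells between the 25th and 75th percentile of UMIs. At 72 h, the 2436 calls became 1606 without the replicate block, 986 with thinned cells, where 3171 genes were tested, and 1336 in the smaller pool alone. The mutation difference kept its direction and did not pass the test under any of 14 alternatives (permutation p = 0.377 without the replicate block), from 0.106 to 0.480 with each mouse left out, as did both share differences, which passed under all 11 each, with -18.0 to -16.4 points for the S class and 6.56 to 7.21 for the mitotic class with each mouse left out. The mutation difference was 0.571 with medians over cells and 0.661 with stricter class thresholds, in 5 mice. With 5 mice the sign-flip test could not have passed, so that alternative does not bear on the call. With stricter thresholds the share differences were -8.99 and 2.13 points. Mutations and shares rest on 7 mice, and mitotic-class values on 30 cells in mouse 4. The comparison of the S-minus-mitotic difference between CDK2hi and CDK2low cells and its alternative normalization were not run, because 1 mouse had at least 10 mitotic-class cells in both pools.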

Other observations

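In the CDK2hi pool, 154 cells carried a single hashtag that belongs to none of the listed mice, and in the CDK2low pool 178 cells did. These cells were assigned to no mouse and entered no comparison. Both pools list 2 mice to which no cell was assigned.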
